A study of Homo sapiens with 22 samples.

Results

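The human MTBP peaks described here lie in copies of DNA transposons, away from promoters and annotated enhancers. They are the peaks of the authors' MTBP list on chromosomes 1 to 22 and X that the authors placed in location class Others and whose annotation names a repeat of class DNA. This rule gave 569 peaks, which is 1.91% of the 29848 MTBP peaks on these chromosomes, 4.0% of the 14228 peaks of class Others and 12.6% of the 4524 peaks of that class annotated to any repeat. The annotation names the repeat at the position of the peak, so a peak may extend beyond the element.

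The study mapped where the replication protein MTBP binds and where DNA synthesis begins in DLD-1, an established colorectal adenocarcinoma line, with 22 libraries in 8 groups. CUT&RUN, in which an antibody brings a nuclease to its target and frees the DNA there, was run with a FLAG antibody on 3 libraries each of MTBP-mAID/MTBP-WT-FLAG cells, MTBP-mAID/MTBP-deltaC-FLAG cells and the untagged control MTBP-mAID/MTBP-mAID. All these cells thus carry the degron-tagged MTBP-mAID allele, and deltaC lacks the C-terminal end of MTBP. In the WT-FLAG cells, IgG and an antibody to H3K4me2, a histone mark of promoters and enhancers, were used on 2 libraries each. EdU-seq, which sequences DNA made while cells take up the nucleoside EdU, had 3 libraries each of WT cells arrested in G1, released WT cells and released deltaC cells, labelled with 10 µM EdU for 3 hr with HU and aphidicolin present. Whether each line is 1 clone is not given in the sources used here. H3K4me2 peaks lay within 1 kb of a gene end at 7 of 8 colorectal epithelium markers (all but CDH17) and at 1 of 8 markers of other tissues (SYP). The deposited lists hold 1 WT and 1 deltaC signal per peak and no value per library. No replicate check and no p-value were therefore possible, and library depth is unknown. Peaks are not replicates: the 95% intervals below are exact binomial (Clopper-Pearson) intervals for shares and order-statistic intervals for medians, and cover counting error over peaks only.

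DNA transposons moved in the genome by cut and paste, catalysed by a transposase that binds the ends of the element. The human copies are inactive remnants, many of them short elements that never encoded a transposase. The hAT superfamily is named after hobo, Ac and Tam3 and includes the Charlie, Tip100 and Blackjack families, and the TcMar superfamily (Tc1/mariner) includes the pogo-like Tigger elements. MTBP acts with Treslin in turning loaded MCM helicases into active replication forks.

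Sequence was at hand for 3 members that overlap a RefSeq promoter window (GRCh38.p14, the assembly of hg38). They are shown because they let the DNA under such a peak be read, and none was chosen for its values. Each runs 5′ to 3′ on the strand of the annotated gene, in lower case, with matches to 8 motifs searched on both strands in capitals. The first covers chr6:112299051-112299350 on the minus strand at LOC107986632, the second chr3:120145414-120145713 on the plus strand at LOC105374065 and the last chr20:47791965-47792184 on the plus strand at LOC107985401.
MER63B: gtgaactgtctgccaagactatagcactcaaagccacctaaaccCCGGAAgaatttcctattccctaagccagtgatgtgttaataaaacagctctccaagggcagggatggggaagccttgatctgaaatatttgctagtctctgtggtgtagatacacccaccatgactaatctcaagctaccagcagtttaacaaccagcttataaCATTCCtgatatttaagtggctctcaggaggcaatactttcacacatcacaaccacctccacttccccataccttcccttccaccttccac
MER5A1: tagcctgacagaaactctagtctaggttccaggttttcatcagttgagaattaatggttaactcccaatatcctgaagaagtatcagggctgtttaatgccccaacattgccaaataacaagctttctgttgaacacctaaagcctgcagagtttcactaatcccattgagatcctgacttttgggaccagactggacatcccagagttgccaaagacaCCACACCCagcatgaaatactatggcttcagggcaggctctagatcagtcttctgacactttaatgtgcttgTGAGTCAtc
MamRep1894: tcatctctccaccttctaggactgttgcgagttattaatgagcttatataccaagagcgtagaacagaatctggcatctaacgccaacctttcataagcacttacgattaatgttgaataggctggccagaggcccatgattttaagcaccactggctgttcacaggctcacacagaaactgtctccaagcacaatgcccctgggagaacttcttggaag

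The motifs, with the share of all 35116 RefSeq promoter windows of 300 bases that hold each, were AP-1 TGANTCA (7.71%), ETS CCGGAA (17.2%), GC box GGGCGG (45.0%), KLF GGGNGTGG (17.2%), TCF7L2 ATCAAAG (2.62%), HNF4 CAAAGTCCA (0.384%), CTCF CCAGNNGGC (11.5%) and TEAD GGAATG (14.0%). None of the printed matches overlaps another. Repeat coordinates were not used, so whether the printed letters belong to the named elements is not known. The MER63B stretch, from a peak annotated to a hAT-Blackjack element, holds the peak's summit. Its TEAD match, CATTCC on the printed strand, spans that summit, and its ETS match lies 165 bp away. The stretch has 1 CpG and a GC content of 45.7%. The MER5A1 stretch, from a peak annotated to a hAT-Charlie element, has 0 CpG and a GC content of 44.0%. It has an AP-1 match TGAGTCA 181 bp from the summit and a KLF match CCACACCC 253 bp from it. The MamRep1894 stretch of 220 bases, from a peak annotated to the hAT superfamily, has 4 CpG, a GC content of 45.9% and no match to these letters. Neither the MER5A1 nor the MamRep1894 stretch holds the summit of its peak. A match is a description of the letters and not a binding site. The MER63B peak had signals of 398 in WT and 256 in deltaC, the MER5A1 peak 314 and 127, and the MamRep1894 peak 208 and 29.4. The lower deltaC value stood in all 3, as in most members. The authors' annotation gives the nearest start site 27549 bp, 23888 bp and -5630 bp away, which are not the RefSeq starts of these windows.

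Most members belonged to 2 superfamilies. hAT had 309 (54.3%) and TcMar 246 (43.2%), and 14 were of other or uncertain families. The hAT-Charlie family had 237 members, TcMar-Tigger 231, hAT-Tip100 49 and hAT-Blackjack 14. The small families were TcMar-Tc2 with 8 members, TcMar-Mariner with 7, PiggyBac with 3, MULE-MuDR with 2, hAT-Ac with 2 and hAT-Tag1 with 1. Family labels without a closer assignment were DNA with 5, hAT with 4, hAT? with 4 and hAT-Tip100? with 2. How much of the genome each family covers was not used here, so these counts say nothing about preference.

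The members carried 139 repeat names, of which 51 occurred once. Tigger1 led with 64 peaks, followed by Tigger3b with 52 and MER58A with 40, and these 3 names made up 27.4% of all members. Tigger1 and Tigger3b are remnants of pogo-like elements, whereas MER58A is a short element that was mobilised by hAT transposases. MER5A had 25 peaks, MER58B 18, MER5A1 17, MER20 16, MER5B 16 and Tigger3a 13. The 9 names with 10 or more members held 261 peaks (45.9%).

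**Figure D1:**
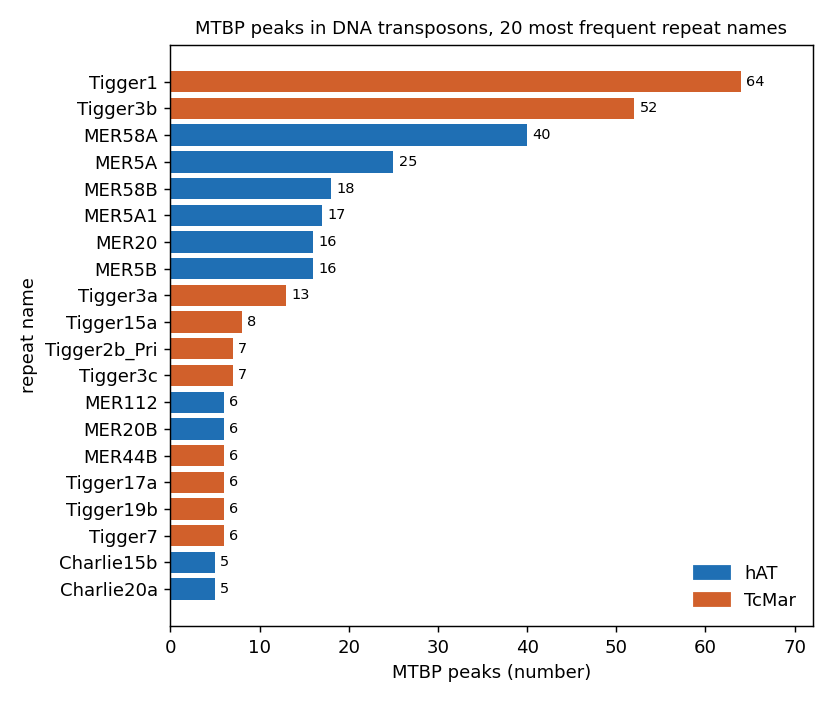
Number of MTBP peaks of class Others (x axis) for each of the 20 repeat names with the most members (y axis), coloured by superfamily. Tigger1 (64), Tigger3b (52) and MER58A (40) stand above the rest.

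The enhancer share differed between the superfamilies, but also between names within them. Of 732 MTBP peaks annotated to DNA transposons in any location class, 61 (8.33%) were promoter peaks, 102 (13.9%) enhancer or super-enhancer peaks and 569 (77.7%) of class Others. Enhancer peaks made up 17.6% of the 415 hAT peaks (14.0 to 21.6%) and 8.97% of the 301 TcMar peaks (5.99 to 12.8%), and these intervals do not overlap. Among the names, 2 of 71 Tigger1 peaks and 1 of 61 Tigger3b peaks were in the enhancer class, against 9 of 39 MER5A peaks (23.1%, 11.1 to 39.3%). The Tigger1 interval (0.343 to 9.81%) and the Tigger3b interval (0.0415 to 8.80%) end below that of MER5A. The other hAT names were mixed, with 4 of 45 for MER58A, 1 of 20 for MER58B, 3 of 21 for MER5A1, 5 of 23 for MER20 and 4 of 24 for MER5B. Tigger3a had 0 of 14. TcMar had 27 enhancer peaks in all, most of them from names other than Tigger1 and Tigger3b. The TcMar share without Tigger1 and Tigger3b was not calculated. Over all MTBP peaks the enhancer share was 17.6%, for LTR elements 13.4%, for LINEs 16.1% and for SINEs 24.6%. The promoter share was close in the superfamilies, 7.95% for hAT (5.54 to 11%) and 9.30% for TcMar (6.27 to 13.2%).

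**Figure D2:**
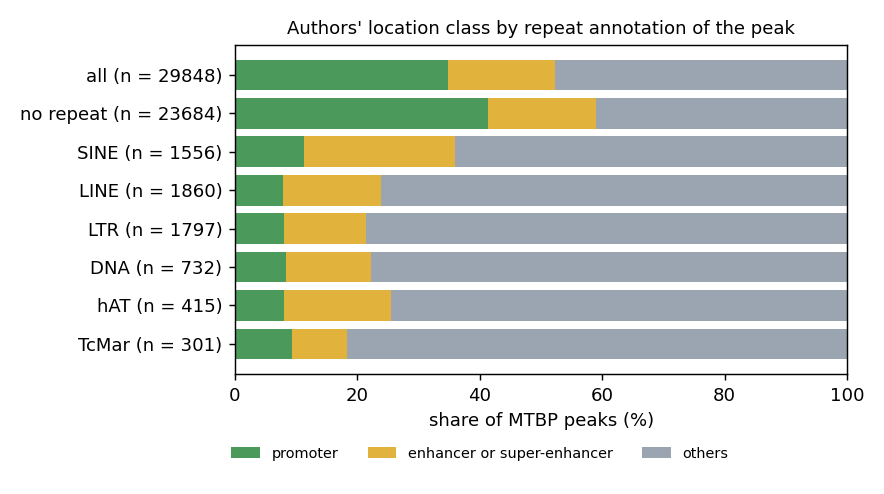
Share of MTBP peaks (x axis, percent) in the authors' promoter, enhancer and other location classes for each repeat annotation (y axis, with n). The enhancer segment is 17.6% for hAT and 8.97% for TcMar.

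The members lay far from start sites by the authors' distances, with a median of 18782 bp and 397 (69.8%) over 10 kb away. In the whole of class Others the median was 17704 bp. By RefSeq, 289 members (50.8%, 46.6 to 55.0%) had their midpoint inside the span of a protein-coding gene. That share was 58.5% for TcMar (52.1 to 64.8%) and 45.0% for hAT (39.4 to 50.7%), with intervals that do not overlap. It was 28.6% for hAT-Tip100 (16.6 to 43.3%), 25% for MER5B (4 of 16) and 84.6% for Tigger3a (11 of 13). The largest families were closer, with 50.2% for hAT-Charlie (43.7 to 56.7%) and 57.6% for TcMar-Tigger (50.9 to 64.0%), intervals that overlap. The frequent names did not all follow the order of the superfamilies. Tigger1 had 45.3% and Tigger3b 59.6%, whereas MER58A had 57.5%, MER5A 56%, MER58B 66.7%, MER5A1 47.1% and MER20 50%. LTR elements of class Others had 33.3%, the older L2, CR1 and MIR repeats 55.5% and class Others as a whole 52.1%. Chromosome 2 held most members (56) and X the fewest (2). As a share of class Others, members were most frequent on chromosome 20 (6.67%, 26 peaks) and least on X (1.79%).

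Peak strength did not set the members apart from other distal peaks. The authors' peak score, whose scale is not stated, ran from 47 to 992 among members with a median of 180, which is also the median of class Others, and the median over all MTBP peaks was 190. hAT and TcMar both had a median of 180 (170 to 201 in each). The median width was 796 bp (776 to 837), compared with 841 bp in class Others and 937 bp over all MTBP peaks. From the lowest to the highest score quartile of members, the median width went from 686 to 1075 bp, and the median fold enrichment of the H3K4me2 peak beneath went from 14.0 to 22.3. Among the 9 names with 10 or more members, Tigger3a had the highest median score (289, n = 13), and MER20 and MER5A1 the lowest (160 in each). TcMar-Tc2 and TcMar-Mariner together had a median of 300 (n = 15).

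The 10 strongest members came from 10 repeat names. The coordinates are hg38 positions as the authors' list gives them. The strongest, a Tigger19a peak at chr9:108074385-108076020, scored 992. It had signals of 1163 in WT and 596 in deltaC, and its nearest protein-coding gene, 585433 bp away, was KLF4, which encodes a transcription factor of gut epithelium. A MER5B peak at chr2:66929299-66930478 scored 977, with 1078 in WT and 614 in deltaC, and has the homeobox gene MEIS1 as its nearest protein-coding gene, 356019 bp away. The MER5A peak at chr2:46352387-46354300 scored 844 and lies inside EPAS1, which encodes HIF-2alpha. Its signals were 1662 in WT and 784 in deltaC. The widest member, a Tigger12 peak of 3497 bp at chr2:37375664-37379161, had the highest signals, 2091 in WT and 999 in deltaC. It lies 4090 bp from QPCT, which encodes glutaminyl cyclase. In each of these 4 the deltaC signal was the lower value, as in most members.

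A score of 757 was shared by the next members. The MER113 peak at chr12:124231725-124233907 overlaps the ZNF664-RFLNA readthrough gene and had signals of 1146 in WT and 732 in deltaC. The MER102b peak at chr20:9075314-9076265 lies in PLCB4, which encodes a phospholipase C, with 683 and 332. The MER104 peak of the TcMar-Tc2 family lies in the calcium channel gene CACNA1E at chr1:181513688-181514752, with 931 in WT and 58.3 in deltaC. That made it the only one of the 10 strongest with a log2 ratio below -2.

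The remaining strong members were MER130 (743), MamRep434 (729) and Charlie13a (701). MER130 is known as a conserved ancient element, and its peak at chr1:225655137-225656406, 1893 bp from the actin regulator gene ENAH, was the highest-scoring member within an initiation zone. MamRep434 lies in NCALD and Charlie13a 108135 bp from LRATD1. A Tigger15a peak in AAK1, a kinase gene, tied with Charlie13a at 701. At the other end of the scale, the weakest member was a MER102b peak in STMN1 that scored 47, with 137 in WT and 54.7 in deltaC and no H3K4me2 peak. A Charlie9 peak near PHYH scored 51. A Tigger19b peak in FBN1, a MER58A peak in LARP1B and a Charlie26a peak in KLHL32 scored 62 each.

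The strongest peak of each of the 9 frequent names lay inside a gene and outside initiation zones, except those of MER5B and MER5A1. For Tigger1 it was in KLF13, which encodes a Krüppel-like factor, at chr15:31386858-31388257, with a score of 591 and signals of 813 in WT and 381 in deltaC. For Tigger3b it was in AFG2A at chr4:123120368-123121993, with a score of 591 and signals of 1074 and 500. For MER58A it was in the kinase gene STK32B, with a score of 673 and signals of 977 and 626. For MER58B it was in CLIC6 (score 409), for MER20 in SYT13 (396) and for Tigger3a in SRD5A2 (577). MER20 is known for copies that act as regulatory elements in the endometrium.

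The highest-scoring members of further families varied in strength. The highest-scoring hAT-Tip100 peak was an Arthur1 element 40119 bp from SMAD1, which encodes a BMP signal transducer, with a score of 659. The highest of TcMar-Mariner was a MADE1 peak in SH3GL2 (498), a short mariner-derived element, with an H3K4me2 enrichment of 50.8-fold. The highest of PiggyBac was a Looper peak in CHN1 (266), of hAT-Tag1 a UCON107 peak near HIVEP3 (348) and of hAT-Blackjack a MER63A peak with COL12A1 as the nearest gene (372). MER121, a conserved element of uncertain hAT affiliation, peaked at a score of 180, at a site with TBX3 as the nearest gene.

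Nearly all members stood on H3K4me2. Of the 569, 556 (97.7%, 96.1 to 98.8%) overlapped an H3K4me2 peak by at least 1 bp, compared with 98.3% in class Others and 98.9% over all MTBP peaks. The share was 97.1% for hAT and 98.4% for TcMar. The median fold enrichment of these H3K4me2 peaks, as the authors' list gives it, was 18.1, with 19.1 for hAT and 17.1 for TcMar, compared with 20.1 in the rest of class Others, 23.6 over all MTBP peaks and 14.4 over all H3K4me2 peaks. Of the members' H3K4me2 peaks, 29.7% were in the top quartile of that list, compared with 35.9% in the rest of class Others and 48.5% for all other MTBP peaks.

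The MTBP and H3K4me2 summits lay near each other, with a median distance of 143.5 bp. That is close to the 146 bp of class Others, and the median over all MTBP peaks was 211 bp. It was 78 bp for Tigger3b and 72 bp for MER5A1. In 497 of the 556 members with H3K4me2 (89.4%) the H3K4me2 peak held no other MTBP peak. This was near the 87.1% of the rest of class Others and the 90.2% of LTR elements. Over all other MTBP peaks it was 84.9%. The 13 members without H3K4me2 comprised 9 hAT and 4 TcMar peaks, among them 3 Tigger3b and 2 MER5A. Their median score was 112 and their median WT signal 203, below the members' medians of 180 and 342. The strongest of the 13 was a MER91B peak 2510 bp from TMIGD1, with a score of 233 and signals of 315 in WT and 273 in deltaC.

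Initiation zones are the regions of early DNA synthesis that the authors derived from EdU-seq. Of the members, 85 (14.9%, 12.1 to 18.1%) overlapped one. The share was 15.6% in class Others, 16.4% for LTR elements, 15.3% for L2, CR1 and MIR repeats and 23% over all MTBP peaks. L1 elements of class Others had 11.8% (9.68 to 14.2%) and Alu elements 26.2% (22.4 to 30.2%). The members' interval includes the share of class Others. hAT had 52 of 309 (16.8%, 12.8 to 21.5%) and TcMar 30 of 246 (12.2%, 8.38 to 16.9%). The difference of 4.63 percentage points had an interval from -1.58 to 10.6, which includes 0.

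Among the families with 10 or more members, hAT-Tip100 had the highest zone share. Of its 49 members, 15 (30.6%, 18.3 to 45.4%) lay in an initiation zone, compared with 14.4% for hAT-Charlie (10.1 to 19.5%), 13% for TcMar-Tigger (8.94 to 18%) and 1 of 14 for hAT-Blackjack. The interval of hAT-Tip100 overlaps that of hAT-Charlie and lies above that of TcMar-Tigger. MULE-MuDR and hAT-Tip100?, with 2 members each, had 1 in a zone. hAT-Tip100 is 1 of 14 family labels looked at, and no allowance was made for that number. The 15 peaks lay in 15 different zones on 10 chromosomes and came from 11 of the family's 22 repeat names. Without hAT-Tip100 the difference between hAT and TcMar was 2.04 points. The hAT-Tip100 share was 11 of 35 outside protein-coding genes (31.4%, 16.9 to 49.3%), compared with 46 of 245 for the other families (18.8%, 14.1 to 24.2%). Inside genes it was 4 of 14 (28.6%, 8.39 to 58.1%), compared with 24 of 275 (8.73%, 5.67 to 12.7%). The hAT-Tip100 share was the higher value in each comparison, but the intervals overlap and only 14 of its members lay inside genes. Whether position relative to genes accounts for the hAT-Tip100 share was not tested.

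The scores of these hAT-Tip100 peaks in zones ran from 62 to 524, and most were below the members' median of 180. The Arthur1 peak at chr6:30129189-30130309, 6391 bp from TRIM40, scored 524 and had signals of 981 in WT and 353 in deltaC. It lay in a zone of 118 kb with 10 MTBP peaks. The MamRep4096 peak in SLIT1, which encodes an axon guidance ligand, scored 289 with 421 in WT and 289 in deltaC, and another MamRep4096 peak in the phosphodiesterase gene PDE4D scored 255 with 455 and 299. An Arthur1B peak at chr3:14295599-14297038, with LSM3 as the nearest gene, had 681 and 322. The weakest was a Zaphod3 peak near PLEKHG6, with a score of 62. In all 15 the deltaC signal was below the WT signal, but it was the higher one in only 6.68% of all members. The log2 ratios of the 15 ran from -2.87 for a MER45C peak near POLR1A to -0.21 for the MER91B peak near TMIGD1.

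TcMar-Tc2 and TcMar-Mariner had 0 of 15 members in zones, which allows a share of up to 21.8%. Among the frequent names, Tigger1 had 9 of 64 members in zones, Tigger3b 6 of 52, MER58A 4 of 40, MER5A 3 of 25, MER58B 2 of 18, MER5A1 2 of 17, MER20 4 of 16, MER5B 3 of 16 and Tigger3a 3 of 13. The shares ran from 10.0% for MER58A to 25% for MER20, and the intervals of all 9 names include the 15.6% of class Others.

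**Figure D3:**
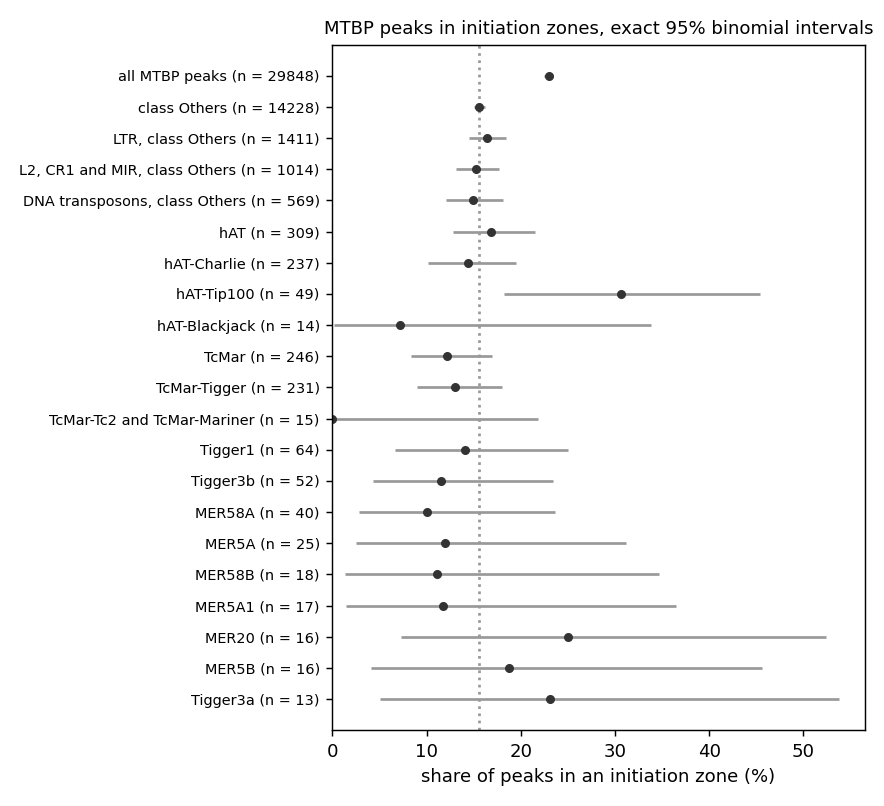
Share of MTBP peaks that overlap an initiation zone (x axis, percent) with exact 95% binomial intervals, for repeat groups, families and names (y axis, with n). The dotted line marks class Others at 15.6%, and hAT-Tip100 is at 30.6%.

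Where a member lay relative to genes went with its zone share. Inside protein-coding genes 9.69% of members were in zones (6.53 to 13.7%), and outside genes 20.4% (15.8 to 25.6%). The rest of class Others had 10.6% and 21.1%. Within 10 kb of a start site the members' share was 20.9% (15.1 to 27.8%), and farther away 12.3% (9.27 to 16.0%), with intervals that overlap. The rest of class Others had 23.1% and 12.2%. The score quartile did not order the zone shares, which were 14.7%, 12.7%, 16.9% and 15.5% from the lowest to the highest quartile. Of the 433 members with another MTBP peak within 50 kb, 84 were in a zone, against 1 of the 136 members without. This split was not made for other MTBP peaks, so it does not set the members apart. The median zone is 48.3 kb wide, so peaks that share a zone often lie within 50 kb of each other.

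The 85 members occupied 80 of 2473 zones (3.23%), and 5 zones held 2 members each. Zones with a member had a median width of 70.9 kb, compared with 48.3 kb over all zones. They had a median of 4 MTBP peaks, compared with 2 over the 2023 zones with any MTBP peak. Wider zones and zones with more peaks are more likely to hold a member, so these differences say nothing particular about the members. Zones were not matched for width. In 5 zones the only MTBP peak was a member. These were a MER44A peak near RBPMS, a MER20B peak in RASSF3, a Tigger1 peak 111802 bp from BMP7, a Tigger3b peak near ADCY9 and a BLACKJACK peak near SERPINB6. The MER20B peak at chr12:64560880-64562120 had signals of 641 in WT and 300.4 in deltaC in a zone of 75 kb. The Tigger1 peak at chr20:57056219-57057684 had 896 in WT and 472 in deltaC, and its zone was the narrowest of the 5, at 12.6 kb.

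The 5 highest-scoring members in zones included the MER130 and Arthur1 peaks above. The MER130 peak had signals of 943 in WT and 410 in deltaC in a zone of 141 kb. A Charlie4z peak at chr11:120200205-120201204, 10328 bp from OAF, had 642 and 274. A Tigger1 peak at chr17:65732131-65733977 lies in CEP112, which encodes a centrosomal protein, and had 1008 and 290 in a zone of 245 kb with 30 MTBP peaks. A MER5A1 peak at chr2:42117423-42119014, 51135 bp from the microtubule-associated gene EML4, had 957 and 541.

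Close pairs of members were few. Of 546 pairs of neighbouring members, 6 were within 10 kb, and 1 of these shared a repeat name. That pair consisted of Tigger3b peaks 1999 bp apart near CITED4, which encodes a transcriptional co-regulator, both in 1 zone. The peak at chr1:40866098-40866952 had signals of 486 in WT and 319 in deltaC, and the one at chr1:40868083-40868965 had 456 and 223. A further zone, on chromosome 17, held a Tigger1 and a MER91B peak among 24 MTBP peaks. The gene nearest to the former, 119430 bp away, was AXIN2, which encodes a Wnt feedback regulator.

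The deltaC signal was below the WT signal at most members. The median signal was 342 in WT (326 to 356) and 198 in deltaC (187 to 208). The signals are the authors' values with unstated scaling, so a difference between lines in depth or scale cannot be told apart from a difference in binding. The median log2((deltaC + 1)/(WT + 1)) was -0.85 (-0.89 to -0.80), with quartiles of -1.25 and -0.55, compared with -0.93 over all MTBP peaks and -0.88 in class Others. In 38 members (6.68%, 4.77 to 9.05%) the deltaC signal was the higher one, compared with 6.45% in class Others and 4.52% over all MTBP peaks.

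At least 2-fold lower in deltaC were 226 members (39.7%, 35.7 to 43.9%). Over all MTBP peaks 44.9% passed this mark, and in class Others 42.1%. At least 2-fold higher were 2 members (0.351%), compared with 0.419% over all peaks and 0.626% in class Others. Because the median peak was lower by 0.93 on the log2 scale, the ratios were also taken relative to it. Then 38 members (6.68%) were at least 2-fold lower, compared with 7.64% of all peaks and 8.10% of class Others. At least 2-fold higher were 32 (5.62%, 3.88 to 7.85%), compared with 3.73% of all peaks and 5.37% of class Others. The members' interval includes the share of class Others. The members' median on that scale was 0.084 (0.042 to 0.13), compared with 0.050 (0.036 to 0.061) in class Others.

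The superfamilies differed little in this ratio. The median was -0.88 for hAT (-0.95 to -0.82) and -0.79 for TcMar (-0.87 to -0.73), and the difference of -0.09 had an interval from -0.18 to 0.01. Among the names with 10 or more members, Tigger3b had the median nearest to 0 (-0.73, -0.99 to -0.60), with deltaC above WT in 7 of 52 peaks. MER20 (-1.14, -1.48 to -0.48) and MER5B (-1.13, -1.46 to -0.72) had the lowest of these names, with intervals that overlap that of Tigger3b. Tigger1 had -0.85 and MER58A -0.86. hAT-Blackjack had -1.13 (-1.91 to -0.64, n = 14), and TcMar-Tc2 with TcMar-Mariner -0.60 (-0.81 to -0.14, n = 15).

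**Figure D4:**
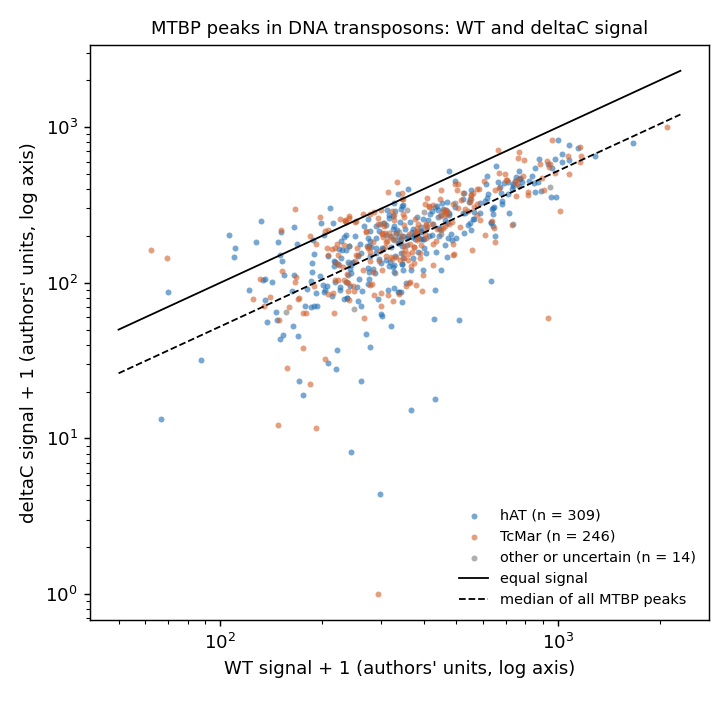
Authors' deltaC signal + 1 (y axis) against WT signal + 1 (x axis), both log axes, with 1 point for each of the 569 members coloured by superfamily. Most points lie under the solid line of equal signal and around the dashed line, which marks the median ratio of all MTBP peaks (-0.93 on the log2 scale).

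Single members at the extremes of the ratio were taken from those whose mean signal reached the lowest quartile of the whole list. The lowest of these was a MER94 peak of hAT-Blackjack 32007 bp from MAP3K8, with 431 in WT and 17 in deltaC (log2 ratio -4.59). The MER104 peak in CACNA1E followed with -3.98. An ORSL-2b peak with C1orf94 as the nearest gene had 507 and 56.8 (-3.14). A MER58B peak in LRP5, which encodes a Wnt co-receptor, had 428 and 57.8 (-2.87), and an OldhAT1 peak in the splicing factor gene CDC5L had 633 and 102 (-2.62). None of these 5 lay in an initiation zone. The mean includes the deltaC signal, so this selection leaves out members with little of it. Lower ratios than that of MER94 stood below the limit at a MER5B peak with IMPG1 as the nearest gene (296 in WT and 3.38 in deltaC, -6.08), a Charlie15b peak in NISCH (243 and 7.18, -4.90) and a Charlie8 peak with PREX1 as the nearest gene (367 and 14.2, -4.60). A Tigger15a peak in CCDC117 was listed at 0 in deltaC with 292 in WT.

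The highest ratios in that selection were small by comparison. A MER2 peak in FRMD3 had 165 in WT and 297 in deltaC (0.84), and a Charlie15b peak in SCHIP1 211 and 303 (0.52). A Tigger3b peak in TTC1 had 333 and 445 (0.42), a Tigger3c peak in DNAJC5B 197 and 264 (0.42) and a MER5B peak near PFDN4 197 and 241 (0.29). The 2 members past 2-fold lay below the signal limit of this selection. They were a Tigger3b peak in LONP2, which encodes a peroxisomal protease, with 61.3 and 161, and a Tigger19b peak in the helicase gene ASCC3, with 68.8 and 144.

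Members in initiation zones had a lower deltaC signal relative to WT than members outside. The median log2 ratio was -1.12 in zones (-1.22 to -0.92, n = 85) and -0.82 outside (-0.87 to -0.77, n = 484), with intervals that do not overlap. The WT median was 373 in zones and 338 outside, while the deltaC median was 190 in zones and 198 outside. At least 2-fold lower were 49 of the 85 in zones (57.6%) and 177 of the 484 outside (36.6%). The same shares were 57.4% and 39.3% in the rest of class Others, and 59.8% and 40.5% over all other MTBP peaks. The rest of class Others had medians of -1.10 and -0.85, close to the members' values. For TcMar the medians were -1.15 and -0.77, and for hAT -1.04 and -0.86. Within each superfamily the intervals overlap, from -1.32 to -0.82 against -0.84 to -0.70 for TcMar and from -1.23 to -0.82 against -0.91 to -0.80 for hAT.

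The median ratio was lower near zones than far from them. Of the members, 85 were in a zone, 58 up to 50 kb from one, 108 from 50 to 250 kb, 132 from 250 to 1000 kb and 186 (32.7%) over 1000 kb away. The median log2 ratios in this order were -1.12, -1.02, -0.94, -0.75 and -0.77. The interval in zones (-1.22 to -0.92) lies below those of the last bands, from -0.85 to -0.67 and from -0.84 to -0.68, and overlaps those of the bands between. The rest of class Others had -1.10, -0.99, -0.87, -0.83 and -0.79.

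**Figure D5:**
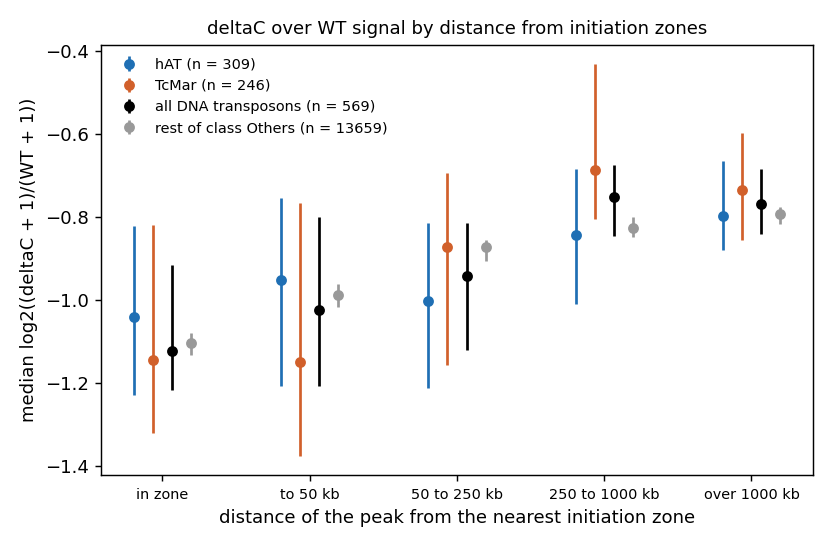
Median log2((deltaC + 1)/(WT + 1)) (y axis) with order-statistic 95% intervals by distance from the nearest initiation zone (x axis, categories), for hAT, TcMar, all members and the rest of class Others. All members run from -1.12 in zones to -0.77 at over 1000 kb, beside -1.10 and -0.79 in the rest of class Others.

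The authors' list names each peak after WT or deltaC, and 27 members (4.75%, 3.15 to 6.83%) were named after deltaC. The share was 4.27% in class Others and 2.94% over all MTBP peaks. They were weak, with a median score of 108 and a median log2 ratio of 0.30. Peaks named after deltaC had 108 and 0.36 in the rest of class Others, and 100 and 0.31 over all other MTBP peaks. How the names were given is not stated, so the naming itself may select for a higher ratio. The 27 members comprised 16 hAT and 10 TcMar peaks and 1 MULE-MuDR peak. None came from hAT-Tip100 or from Tigger1, but the intervals of both shares include the members' 4.75%. The same holds for hAT-Blackjack and MER20, which also had none, so these zeros do not set the groups apart. In initiation zones were 0 of the 27, which allows a share of up to 12.8%. In the rest of class Others 52 of 580 peaks named after deltaC were in zones (8.97%, 6.77 to 11.6%), a share within that limit. The strongest of the 27, with a score of 175, were a Tigger3b peak in ITFG1 and the Tigger3c peak in DNAJC5B. The 542 members named after WT had a median log2 ratio of -0.87, and all 85 members in zones were among them. The 457 of them outside zones had a median of -0.85 (-0.89 to -0.80), which does not overlap the interval of the 85 in zones.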

How the data were processed

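MTBP CUT&RUN, H3K4me2 CUT&RUN and EdU-seq of DLD-1 cells were deposited as 3 lists on hg38. Trim Galore, Bowtie2, MACS2 and HOMER were used upstream, per the submitters' processing notes. Versions, settings and pooling stay unstated (not given in the sources used here). Each MTBP peak has a score, a WT signal and a deltaC signal computed by the authors on an unstated scale, 1 value per line. The zone list holds the authors' average score per zone, and it is not stated which EdU-seq libraries it came from. The deposited H3K4me2 list is in the layout of MACS2, with a score, a fold enrichment and −log10 p and q per peak. Whether MTBP starts count from 0 or 1 is not stated. Depth is unknown, and no per-sample column was left unused (0).

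Members were selected by location class and repeat class in the annotation, and 1 peak of class DNA? and 10 MTBP peaks on Y were left out. Superfamily was the text before the first hyphen of the family name. Overlap meant at least 1 bp, except that a peak counted as inside a gene when its midpoint lay within the gene's span. Signals were compared as log2((deltaC + 1)/(WT + 1)), without a p-value, because the planned edgeR test needs library counts. Shares have exact binomial (Clopper-Pearson) intervals at 95%, medians order-statistic intervals, and differences square-and-add intervals made from both. Genes and promoter windows came from RefSeq (GRCh38.p14). The planned motif scan of all members was not run, since no genome was used here. The steps were tested on simulated data. Python 3.11.15, numpy 2.4.6, pandas 2.3.3 and scipy 1.17.1 were used.

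The members and lists were chosen with earlier results of these data known. Members named were the 10 with the highest and the 5 with the lowest score, the 5 highest and 5 lowest ratios above the lowest quartile of mean signal, the 5 highest scores in zones and the highest of each family and of each name with 10 or more members. Others, such as the members alone in a zone or sharing one, those named after deltaC, past 2-fold or with lower ratios below the signal limit, and the hAT-Tip100 members in zones, were named after their values were seen. Alternatives covered the overlap rule, H3K4me2, zone, score and signal thresholds, pseudocounts, scaling, family labels, clustering of members and, added after seeing the data, leaving out chromosomes 2 and 17, hAT-Tip100 or peaks named after deltaC. Libraries of the untagged, IgG and G1-arrested groups were not analysed here.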

Additional observations from a re-analysis of the deposited data

How the results depend on the processing

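Over 9 results and 55 alternatives, 41 values stayed within their intervals or within 1.5 times the count, 13 moved and 1 changed sign. The median log2 ratio changed sign to 0.084 when the median over all peaks was subtracted, which also gave 38 members at least 2-fold lower and 32 at least 2-fold higher. Restricting members to scores at or above the list median left 278, of which 99.6% overlapped H3K4me2, 114 were at least 2-fold lower and 0 at least 2-fold higher. Counting only H3K4me2 peaks whose score reached their median, the overlap was 67.0%. The zone share was 25.1% with zones widened by 50 kb and 11.2% with zones of at least the median width. With a mean signal of at least the lowest quartile, the median log2 ratio was -0.79, with 139 of 419 members at least 2-fold lower and 0 at least 2-fold higher. That mean includes the deltaC signal, so this filter leaves out members with little of it. A pseudocount of 10 left 1 member at least 2-fold higher.

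In alternatives added after seeing the data, the zone share was 14.1% and the median log2 ratio -0.85 without chromosomes 2 and 17, the ratio was -0.87 for peaks named after WT, and the difference between hAT and TcMar in zone share was 2.04 points without hAT-Tip100. No paired analysis was possible because the lists hold no values per library, and for the same reason no replicate could be left out in turn. The alternatives for the motif share were not run, since no genome was used here. Signals of unstated scaling limit every comparison of deltaC with WT, and repeat coordinates, which would show how much of each element lies under a peak, were not used.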
